A study of Homo sapiens with 8 samples.

Results

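The 60 protein-coding genes for collagen chains, laminin chains, agrin (AGRN), perlecan (HSPG2) and the nidogens (NID1 and NID2) were examined for METTL3 RNA immunoprecipitation peaks in 2 human prostate cancer cell lines. The genes were taken by symbol from all 19970 protein-coding genes on chromosomes 1 to 22 and X, and a peak was counted for a gene when it lay whole within the gene's GRCh38 span. In these genes 34 peaks were listed for LNCaP and 15 for PC3, on 13 genes in all. METTL3 is the enzyme that places N6-methyladenosine, the commonest internal mark of messenger RNA, as part of a larger complex. In the assay, RNA bound to METTL3 is recovered with an antibody (the IP) and sequenced beside RNA of the same lysate that was not precipitated (the input).

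The study held 8 samples in 4 groups, METTL3 IP and input from LNCaP and from PC3, with 2 replicates per group. Both are established lines without any further treatment in the labels. LNCaP is androgen-sensitive and was grown in 20% fetal bovine serum, and PC3 is androgen-independent and was grown in 10%. The IP took 80% of each lysate and the input 10%. A further 10% went to an IgG control, which was not analysed here. The deposited result is 1 list of peaks per line, 2616 for LNCaP and 1033 for PC3, so each value below stands for a whole line. No error between replicates and no test between the lines could be computed, and the sequencing depth is unknown.

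Collagens are built from 3 chains wound into a triple helix, and each chain has a gene of its own. Fibril-forming collagens carry load in connective tissue, whereas type IV collagen forms the network of the basement membrane, the sheet on which epithelial cells of the prostate rest. Laminins combine an alpha, a beta and a gamma chain into a cross-shaped molecule that binds receptors on the cell. Nidogens and the heparan sulfate proteoglycans perlecan and agrin link the laminin and collagen networks.

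The 2 lists admit peaks at very different p-values, and this bears on each comparison of the lines. LNCaP peaks were listed up to a p of 0.0178, but PC3 peaks only up to 1.59e-05, a limit that 389 of the LNCaP peaks meet. The fold, p and FDR of a peak are the authors' own. Fold is a linear enrichment per peak, read here as IP over input, and was made for each list separately. Of 8 luminal prostate markers, 4 held a peak in LNCaP (FOLH1, SLC45A3 and TMPRSS2 among them) and 0 did in PC3. Under the PC3 limit on p, FOLH1 alone of these was left in LNCaP. None of 8 markers of basal or mesenchymal-like cells, or of 4 endothelial markers, held a peak in either list. Of 8 fibroblast markers only the fibronectin gene FN1 did, in both lists. Over all protein-coding genes 5.62% held a peak in LNCaP and 1.83% in PC3. At such shares a count of 0 among 8 or 4 markers tells little, and the PC3 label is left unchecked. A peak is no measure of RNA level, so these counts do not settle which cells were present.

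In LNCaP 10 of the 60 genes held a peak (16.7%, 95% Wilson interval 9.31 to 28.0%), against 5.62% of all protein-coding genes. In PC3 it was 7 of 60 (11.7%, 5.77 to 22.2%), against 1.83%. The intervals cover counting error only, and those of the 2 lines overlap. Both lists held 4 of the genes (6.67%, against 1.16% of all genes), namely COL6A1, COL6A2, LAMA3 and LAMC1. These made up 40% of the 10 genes from LNCaP and 57.1% of the 7 from PC3, where over all genes the shared ones were 20.6% of the LNCaP list and 63.3% of the PC3 list. COL4A5, COL5A1, COL7A1, COL23A1, LAMA5 and LAMB2 were listed in LNCaP alone, and COL6A3 and LAMB3 were among those in PC3 alone.

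The order of the lines turned when 1 limit on p was set for both, and it did so over all genes as well. With the largest PC3 p as the limit, LNCaP kept 5 peaks on 4 of the 60 genes (COL6A2, COL7A1, LAMB2 and LAMC1), while the 7 PC3 genes were untouched. Over all genes LNCaP fell from 1122 genes with a peak to 265 (1.33%), against 365 in PC3 (1.83%). Every LNCaP peak on COL4A5, COL5A1, COL6A1, COL23A1, LAMA3 and LAMA5 had a p above that limit. The PC3 list holds no peak at such a p, on any gene. With a minimum fold of 4 instead, PC3 kept 2 of its 7 genes (COL6A3 and LAMC1) and LNCaP 9 of its 10. That limit widened the LNCaP lead to 7 genes. The share of all genes that pass it was not computed.

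The peaks were gathered in 2 of the 7 groups into which the genes were sorted. This sorting was made with earlier results of these data known, so the gathering is descriptive and was not tested. In the group of type VI, VII, VIII, X, XXVI and XXVIII collagens 3 of 11 genes held a peak in LNCaP and 3 in PC3, and among the laminin chains 4 of 12 did in each line. Together these 2 groups held 30 of the 34 LNCaP peaks and all 15 PC3 peaks. Single genes weighed heavily in this count, with 9 LNCaP peaks on LAMC1 and 6 on COL7A1. Of 11 fibril-forming collagens COL5A1 alone held a peak, of 8 basement membrane collagens COL4A5 alone, and of 4 membrane-spanning collagens COL23A1 alone, each in LNCaP. None of the 10 fibril-associated collagens and none of AGRN, HSPG2, NID1 and NID2 held one in either list. The 47 genes without a peak included COL1A1, COL1A2 and COL3A1, the main chains of fibrils in connective tissue, COL4A1 and COL4A2, the commonest chains of type IV collagen, and LAMB1. Whether these genes were expressed was not measured by the lists, so no peak does not mean no binding.

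**Figure D1:**
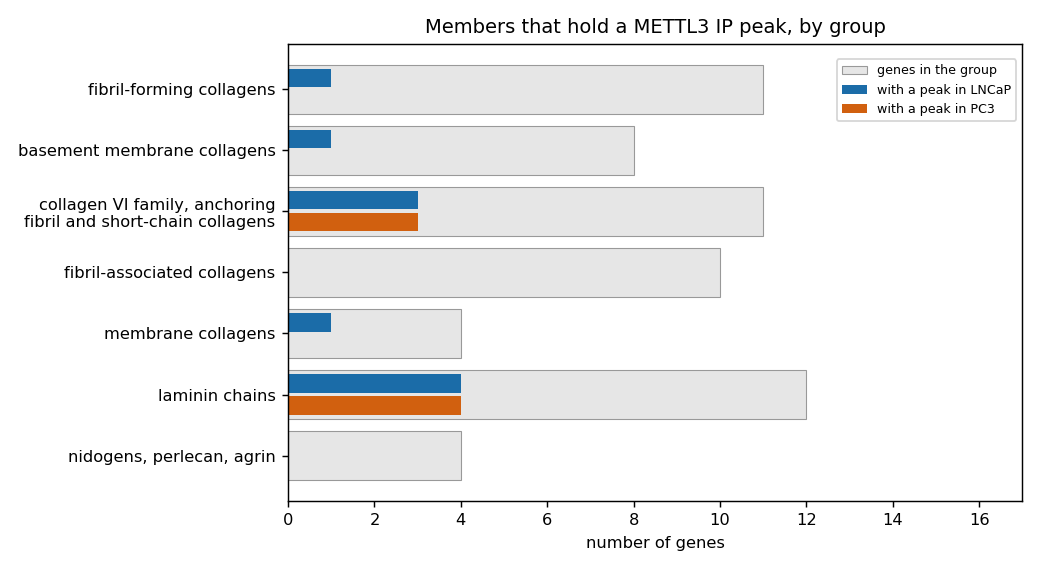
Number of genes (horizontal axis) in each group of collagen, laminin and linker genes (grey), and the number that held at least 1 METTL3 IP peak in LNCaP (blue) and PC3 (orange). In each line peaks lay on 3 of 11 genes of the collagen VI group and 4 of 12 laminin chains. The collagen VI group also holds COL7A1 and other collagens. Of these genes, 2 in each group held a peak in both lines. Neither line had a peak on any of the fibril-associated collagens or of the nidogen, perlecan and agrin genes. Over all protein-coding genes 5.62% held a peak in LNCaP and 1.83% in PC3, so few or no peaks in a small group tell little.

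Over all genes, those under 20 kb held a peak least often in both lines, and the collagen and laminin genes are long. Their median span was 120214 bp, against 24190 bp over all protein-coding genes. If they had held a peak as often as all genes of like span, in 5 classes of span, 6.06 of the 60 would have done so in LNCaP and 1.98 in PC3, against the 10 and 7 seen. The median span was 90210.5 bp for the genes with a LNCaP peak, 72705 bp for those with a PC3 peak and 126881 bp for the 47 with none. The share with a peak followed no single order with span. In LNCaP it was 3 of 12 genes at over 20 kb to 50 kb (against 6.17% of all genes of that span), 1 of 12 at over 50 kb to 100 kb (7.02%), 1 of 17 at over 100 kb to 200 kb (12.02%) and 4 of 16 at over 200 kb (14.8%). The last 4 were COL4A5, COL5A1, COL23A1 and LAMA3.

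**Figure D2:**
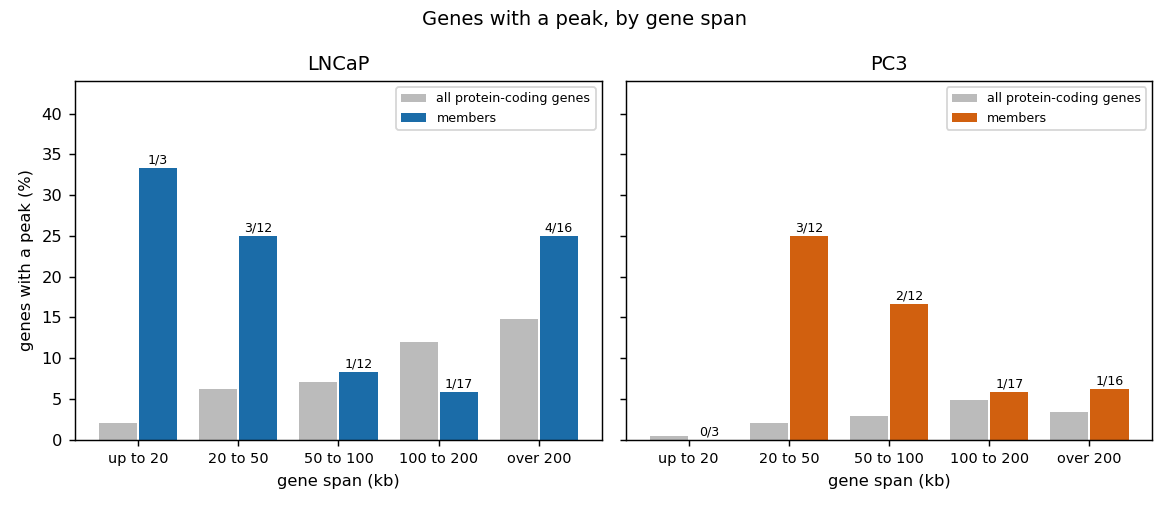
Percentage of genes with a peak (vertical axis) by gene span in kb (horizontal axis), for all protein-coding genes (grey) and for the collagen, laminin and basement membrane genes (coloured, with the number holding a peak over the number in the class). In LNCaP the share was highest in classes at both ends, with 1 of 3 up to 20 kb, 3 of 12 at 20 to 50 kb and 4 of 16 over 200 kb, and in PC3 it was highest at 20 to 50 kb with 3 of 12.

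Collagen VI, whose alpha 1, alpha 2 and alpha 3 chains assemble into beaded microfibrils around cells, was listed for all 3 of these chains in PC3 and for 2 in LNCaP. COL6A1 and COL6A2 are neighbours on chromosome 21, 93.1 kb apart with no protein-coding gene between them. On COL6A1 the LNCaP list had 4 peaks with folds of 4.24, 5.60, 5.32 and 8.91, in order from 45984452 to 45998433 on the plus strand. The PC3 list had 2, with a fold of 3.42 at 45986658 to 45997483 (a listed p of 6.91e-16) and 3.03 at 45998132 to 45998946 (1.50e-08). The PC3 peaks thus ran over more of the gene, at lower listed folds on a scale that is not shared. They took up 11641 bp, or 50.01% of its span, against 5488 bp and 23.6% in LNCaP. These are genomic lengths from which introns were not taken out, so they do not measure how much RNA was bound.

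COL6A2 had 3 peaks in each list. In PC3 their folds lay close together, at 3.05, 2.82 and 3.17, and ran from 46112247 to 46124713. In LNCaP the folds were 6.38 at 46117904 to 46119034, 4.83 at 46120516 to 46121556 and 202.6 at 46122145 to 46124713. The last of these had the second largest fold of the whole LNCaP list but ranked 353 by p, at 9.66e-06 with an FDR of 7.15e-05. The PC3 peak that held it whole ended on the same base, and had a fold of 3.17 at a listed p of 7.64e-14. Of the overlapping pairs on these genes this one differed most in fold, although the fold scales are not shared. The LNCaP peak took up 52.3% of the PC3 peak, which also held the LNCaP peak with a fold of 4.83. The 2 folds thus cover unlike stretches.

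COL6A3, which codes for the largest chain of collagen VI, was listed in PC3 only. Its 2 peaks, on the minus strand of chromosome 2 at 237347830 to 237358536 and 237358561 to 237363310, lay 25 bp apart. Their folds of 7.31 and 6.60 were the largest and the third largest of the PC3 peaks on these genes, and their p-values of 1.20e-23 and 4.69e-19 were the smallest. Together, without the gap between them, they ran over 15457 bp of the genome, or 17.1% of the gene span, with introns not taken out.

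COL7A1, the gene for the chain of type VII collagen, which makes the anchoring fibrils below epithelial basement membranes, held 6 LNCaP peaks and no PC3 peak. From the start of the gene to its end on the minus strand of chromosome 3, the folds were 47.1, 5.23, 236.6, 68.8, 114.9 and 4.48. The peaks were short, between 148 and 895 bp. The fold of 236.6 (48572736 to 48572883, FDR 3.23e-05) was the largest of the LNCaP list, yet the peak ranked 294 by p. High and low folds lay next to each other along the gene. The peak at 48581718 to 48582612, with a fold of 47.1, lay beside one at 48580648 to 48581324 with a fold of 5.23.

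Folds of 40 or more were rare. The LNCaP list held 15 such peaks among its 2616, and 5 of them lay on COL7A1 (4 peaks) and COL6A2 (1 peak). The next largest fold on the remaining genes of the set was 15.5, on LAMC1. The limit of 40 was not among the planned measures and falls in the gap between that fold and 47.1 on COL7A1. The counts made with it describe the list and were not tested. Among the 15 the p ran from 3.84e-26 to 0.000226, and 5 met the PC3 limit on p, of which COL7A1 and COL6A2 supplied 1 each. The PC3 list held 3 peaks with a fold of 40 or more, none of them on a collagen or laminin gene.

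**Figure D3:**
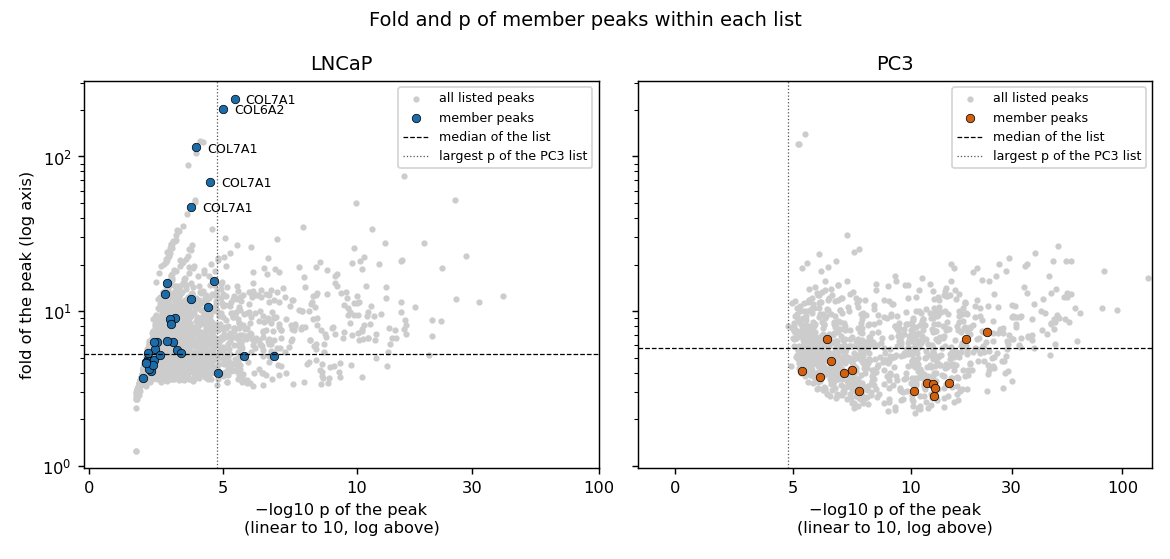
Fold of each peak (vertical, log axis) against −log10 of its p (horizontal), for all listed peaks (grey) and those on collagen, laminin and basement membrane genes (coloured), with the median fold of the list (dashed) and the largest p of the PC3 list (dotted). In LNCaP 4 peaks of COL7A1 and 1 of COL6A2 stand at folds from 47.1 to 236.6, while in PC3 12 of 15 peaks lie under the median.

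The median fold over all 34 LNCaP peaks was 5.95 (3.72 to 236.6), against 5.26 over the whole list, and 13 of the 34 were below the list's median. Without the 5 peaks with folds of 40 or more, the median of the other 29 was 5.38 (3.72 to 15.5). The median over the 15 PC3 peaks was 3.74 (2.82 to 7.31), against 5.74 over the whole list, and 12 of the 15 were below it. Only COL6A3, with both peaks, and LAMC1, with 1 of 5, lay above the PC3 median. All 5 PC3 peaks of COL6A1 and COL6A2 had folds of 3.42 or less at p-values between 6.91e-16 and 1.50e-08. Since peaks of 1 gene share their transcript, these counts describe the lists and were not tested.

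The remaining collagen genes outside the type VI and VII families that held a peak did so in LNCaP. COL5A1, a fibril-forming chain that regulates fibril diameter, held 1 peak with a fold of 8.27 (chromosome 9, 134825823 to 134830132, plus strand) in the last part of the gene. COL4A5, a type IV chain known for its loss in Alport kidney disease, held a 51 bp peak with a fold of 5.38 that began 218 bp from the start of the gene. A second COL4A5 peak of 7065 bp with a fold of 10.6 lay at its middle (chromosome X, 108573639 to 108580703). COL23A1, a membrane-spanning collagen, was listed by a single peak of 301594 bp with a fold of 3.72 and a listed p of 0.00964. That peak ran over 85.5% of the gene span, so it has no defined place within it.

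Laminin chains held 17 LNCaP and 8 PC3 peaks. LAMC1, the gamma 1 chain found in most laminins, had more peaks than any other gene of the set, 9 in LNCaP and 5 in PC3. With peaks up to 25 bp apart joined, LAMC1 had 5 stretches in LNCaP and 4 in PC3. COL7A1 then had more in LNCaP, with 6. In LNCaP 2 short peaks lay at the start of the gene, with folds of 6.26 and 4.08 at 139 and 339 bp from it. The other 7 lay between 183121798 and 183130379 on chromosome 1, with folds from 3.96 to 15.5. The 5 PC3 peaks lay between 183127247 and 183134726, with folds of 6.61, 4.11, 4.16, 4.77 and 3.74. The LNCaP peaks therefore began further upstream in the body of the gene, and the PC3 peaks reached further towards its end, with 2 overlapping in the stretch between. However, the LNCaP peaks from 183121798 to 183125465 had listed p-values from 2.12e-05 to 0.00615, which the PC3 list does not admit. Only the LNCaP peaks that began at 183126159 and 183128611 met the PC3 limit, and both overlapped a PC3 peak. The lists therefore cannot show whether the earlier start in LNCaP is a difference between the lines. One of the 2 overlapping pairs ended on the same base, 183130379, with folds of 3.96 in LNCaP and 4.11 in PC3.

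LAMA3 codes for an alpha chain and LAMB3 for a beta chain of epithelial laminins. LAMA3 held 1 peak in PC3, with a fold of 3.95 (chromosome 18, 23899007 to 23899379, plus strand). In LNCaP it had 4 peaks with folds of 15.1, 11.9, 4.77 and 4.65, from 23898827 to 23907923. The second began on the same base as the PC3 peak. LAMB3 held no peak in LNCaP and 1 in PC3, with a fold of 3.36 (chromosome 1, 209615269 to 209617962, minus strand) and a listed p of 1.74e-13. That peak ended 399 bp before the end of the gene.

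LAMA5, LAMB2 and LAMC1 code for the chains of a laminin of mature basement membranes, and all 3 held a peak in LNCaP, where PC3 had LAMC1 alone. This combination of chains was picked out after its values were seen. LAMA5 held 1 peak (fold 6.35, listed p of 0.00369, chromosome 20, 62317758 to 62318533, minus strand). LAMB2 held 3, on the minus strand of chromosome 3. A 51 bp peak 92 bp from the start of the gene had a fold of 12.98, the next a fold of 4.61, and the last, which ended 469 bp before the end of the gene, a fold of 5.13. The last had the smallest p of all LNCaP peaks on these genes, 1.29e-07. At or under the largest PC3 p, LAMB2 and LAMC1 were left and LAMA5 was not.

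**Figure D4:**
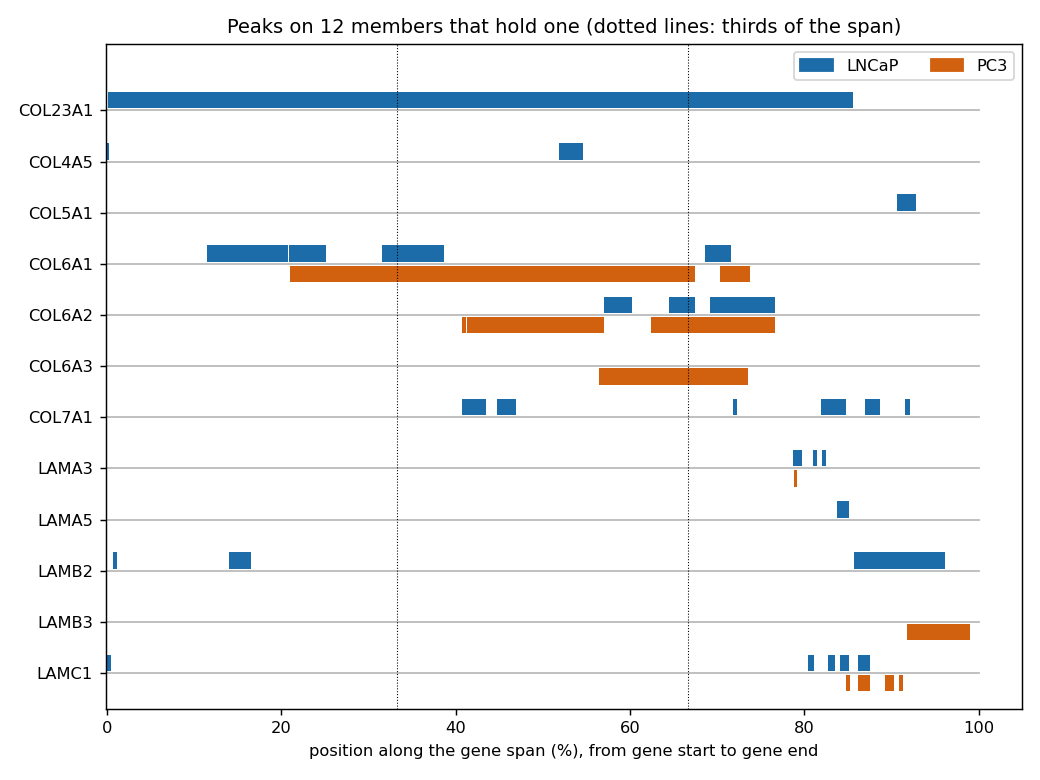
Extent of each peak along the gene span in percent (horizontal axis, from gene start at 0 to gene end at 100) for 12 genes that hold one, with LNCaP above the line (blue) and PC3 below it (orange); peaks under 0.4% of the span are drawn at that width. PC3 peaks lie past the first dotted line except where the long COL6A1 peak begins, whereas LNCaP peaks also stand at the start of COL4A5, LAMB2 and LAMC1.

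Peaks lay towards the end of these genes in both lines. With the span cut into 3 equal parts in the direction of the gene, and each peak counted by its midpoint, the last part held 20 of 34 LNCaP peaks (58.8%, Wilson interval 42.2 to 73.6%) and 11 of 15 PC3 peaks (73.3%, 48.0 to 89.1%). Over all genes it held 46.7% and 57.8%, which lie within these intervals. The first part held 7 LNCaP peaks (20.6%, Wilson interval 10.3 to 36.8%) and 0 PC3 peaks of 15. Over all LNCaP peaks it held 19.3%. A count of 0 of 15 allows a share of up to 20.4% by the same interval, which includes the 13.3% of all PC3 peaks, and the intervals of the 2 lines overlap. All these intervals take peaks as independent. The 34 LNCaP peaks lie on 10 genes and the 15 PC3 peaks on 7, so the intervals are too narrow.

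Short peaks at the very start of genes were listed in LNCaP. Of its 34 peaks 5 began within 1000 bp of the gene's start (14.7%, against 6.40% over all genes). They were the 2 on LAMC1, which lay 25 bp apart, 1 each on LAMB2 and COL4A5, and the long COL23A1 peak. The 14.7% is therefore no share of short, separate peaks. Without the COL23A1 peak, the lengths of the others were 51 to 176 bp. Their p-values, from 0.000370 to 0.00495, were all above the largest PC3 p. In PC3 the nearest peak, on COL6A1, began 4888 bp from the start, and 3.11% of all PC3 peaks began within 1000 bp.

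The 4 genes in both lists held 20 of the 34 LNCaP and 11 of the 15 PC3 peaks. In the whole set 7 of the 15 PC3 peaks (46.7%, Wilson interval 24.8 to 69.9%) overlapped, by 1 bp or more and with strands matched, 9 of the 34 LNCaP peaks (26.5%, 14.6 to 43.1%), in 9 pairs. Over the whole lists 44.4% of PC3 peaks and 21.3% of LNCaP peaks overlapped, which lie within these intervals. The intervals are too narrow here as well, since several peaks lie on 1 gene. One pair, on COL6A2, shared only base 46117904, where the PC3 peak ended and the LNCaP peak began. The LNCaP fold was the higher in 7 pairs, on COL6A1, COL6A2 and LAMA3, and the PC3 fold in the 2 pairs on LAMC1. The PC3 p was the smaller in all 9, which the limits of the lists favour. One pair shared its first base and 2 their last. LAMA3 shows the difference at a common start, with folds of 11.9 in LNCaP and 3.95 in PC3 and listed p-values of 0.000153 and 6.67e-08. The 373 bp shared there are the whole PC3 peak but 17.4% of the LNCaP peak. The 2 folds thus cover unlike stretches, on scales that are not shared.

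**Figure D5:**
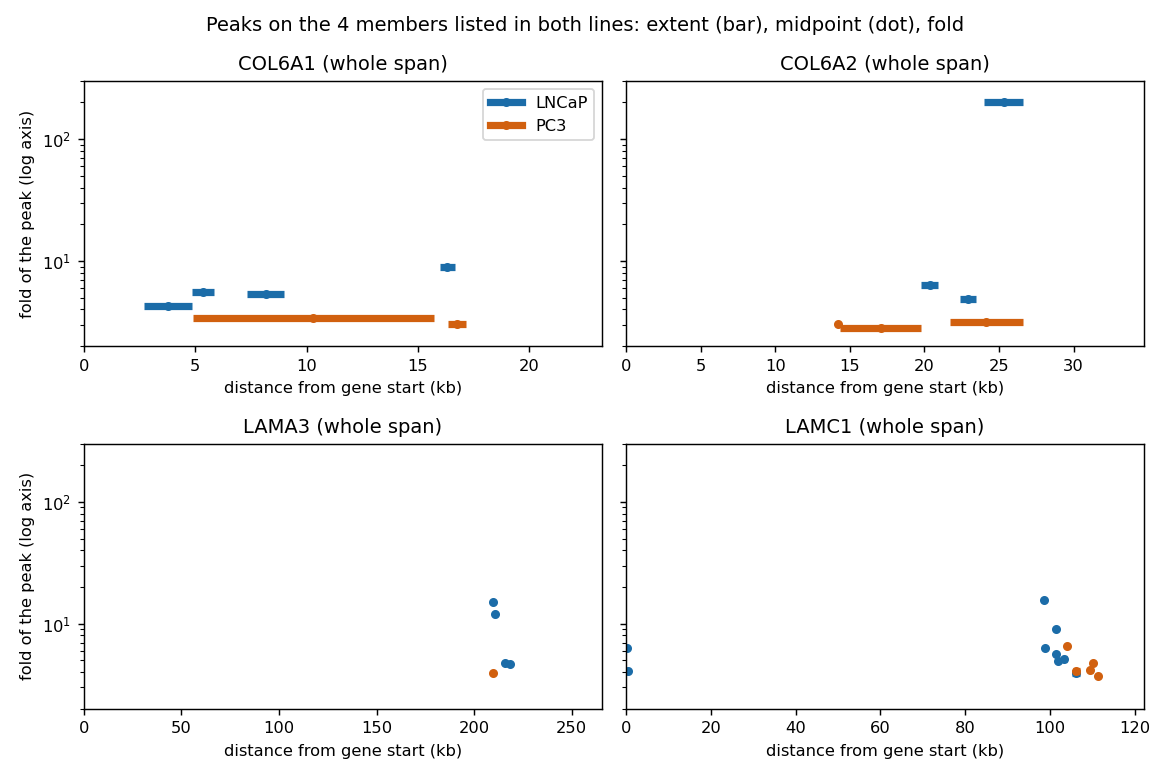
Peaks on COL6A1, COL6A2, LAMA3 and LAMC1, the 4 genes in both lists, by distance from the gene's start in kb (horizontal axis) and fold (vertical, log axis); bars give the extent and dots the midpoint of a peak, in LNCaP (blue) and PC3 (orange). The LNCaP peaks of COL6A1 stand above the PC3 peaks that they overlap, the COL6A2 peak with a fold of 202.6 stands far above the rest, and on LAMC1 the overlapping peaks have like folds.

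The strand was that of the gene wherever it was given. All 30 LNCaP and all 12 PC3 peaks on genes with a strand in the reference lay on it. Over all genes the opposite strand held 74 of 2122 LNCaP placements (3.49%) and 27 of 804 PC3 placements (3.36%). COL18A1, the gene of a basement membrane collagen, marks the edge of the definition. A LNCaP peak of 15339 bp with a fold of 5.98 (chromosome 21, 45498517 to 45513855) had 15204 bp within its span and reached beyond its end. That peak is on the minus strand and the gene on the plus strand, and it was not counted.

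Other genes of the same biology were also examined. Of 103 genes for collagen processing, other matrix proteins, receptors and matrix proteases, 5 held a peak in LNCaP and 5 in PC3 (4.85% each), and 2 in both. The shares over all genes were 5.62% in LNCaP, 1.83% in PC3 and 1.16% in both. Among 32 enzymes and helpers of collagen synthesis, P4HB, a subunit of prolyl 4-hydroxylase, held 2 peaks in each list, with folds of 3.45 and 3.60 in LNCaP and 3.21 and 2.84 in PC3. PXDN, the peroxidase that crosslinks type IV collagen, held 1 in PC3 (fold 5.95), and TLL1, a procollagen protease, a 51 bp peak in LNCaP (fold 3.81). Among 23 receptors DAG1, the laminin receptor dystroglycan, held 2 peaks in LNCaP (folds 4.99 and 6.81) and 3 in PC3 (folds 9.24, 6.16 and 5.91). Both LNCaP peaks began within the PC3 peak with a fold of 9.24 (chromosome 3, 49531373 to 49532073, a listed p of 5.03e-22).

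The remaining receptors were listed in 1 line each. DDR1, a collagen receptor kinase, had a fold of 3.31 and SDC3, a syndecan, of 3.69 in LNCaP, and ITGA3, the alpha 3 integrin, had folds of 3.968 and 4.001 in PC3. Of 30 other matrix proteins only TNC (tenascin C) was listed, in PC3 with a fold of 5.95, and none of 18 matrix proteases and inhibitors was. Once LNCaP peaks were held to the PC3 limit on p, P4HB was left as 1 of the 103 genes. FN1, whose fibronectin binds collagen and which stood among the fibroblast markers above, exceeded every gene of the set with 14 LNCaP peaks (folds 3.98 to 8.63) and equalled LAMC1 in PC3 with 5 (folds 3.89 to 7.68).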

How the data were processed

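The authors deposited 1 peak list per cell line with the start, end, length, strand, fold, p-value, FDR and score of each peak, per the file headers. The FDR equalled the Benjamini-Hochberg adjustment over the listed p-values, and the score equalled the negative log2 of the FDR, in all 2616 and 1033 deposited rows. The submitters' processing notes name fastp, STAR 2.5.3a, bedtools, deepTools and hg38. The peak caller, its limits and the handling of replicates are not given in the sources used here. The lists hold no values per sample, so depth is unknown.

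Peaks were placed on RefSeq gene spans (GRCh38.p14), with gene strand from the RefSeq promoter table for 44 of the 60 genes and otherwise from the peak. Spans include introns. The members, gene lists and measures were chosen with earlier results of these data known. Genes in both lists, and up to 10 others per list by fold, were to be named, which takes in every gene with a peak. Of these 1 gene, and 1 marker, are counted but not reported here by name. Placement, parts and overlaps were tested on simulated peaks. Python 3.11.15, pandas 2.3.3 and scipy 1.17.1 were used. Sequences of the peaks were not analysed here.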

Additional observations from a re-analysis of the deposited data

How the results depend on the processing

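No paired analysis was possible because the lists hold no values per replicate, which also means that leaving out replicates could not be done. Of 76 alternative values 59 stayed within 1.5 times a count or within the 95% interval of a share or median (Wilson, or exact binomial over peaks), 15 moved and 2 reversed. The difference of 3 genes between LNCaP and PC3, added after the data were seen, became −3 with the largest PC3 p as the limit in both lists and −5 with a p of at most 1e-10, and rose to 7 with a fold of at least 4. Under the largest PC3 p the order turned over all genes too, with 265 in LNCaP and 365 in PC3. With the largest PC3 p, LNCaP had 5 peaks on 4 genes, of which 2 were shared, all 5 peaks (100%) lay in the last part of the gene, and 20% of PC3 peaks overlapped. With a p of at most 1e-10, LNCaP had 0 peaks on 0 genes, PC3 had 8 peaks and 0 genes were shared. The share of all genes at that limit was not computed. The median listed p was 0.00137 over the whole LNCaP list and 6.37e-09 over the whole PC3 list. With a fold of at least 4, PC3 had 6 peaks on 2 genes, 1 gene was shared and 16.7% of PC3 peaks overlapped. Requiring 50% of both peaks left 13.3% overlapping. Lower counts follow from stricter limits by construction, as does the lower share when 50% of both peaks is required. The changes in the difference and in the other shares depend on which peaks pass the limit. Any overlap with a gene span, peaks in exactly 1 gene, joined peaks, 1 peak per gene, the 5′ end as position, shared genes and gene strand moved no value that far.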
